A study of Mus musculus with 96 samples.

Results

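The subunits of the respiratory chain and of the ATP synthase were followed as messenger RNA in sciatic nerve and in gastrocnemius, a calf muscle, of male C57BL/6J mice under 7 regimens of diet and running. Members were taken by symbol: names that begin with Nduf followed by a, b, c, s or v and a digit, with Uqcr, with Cox4 to Cox8 or with Atp5, and the mitochondrially encoded mt-Nd, mt-Co, mt-Cytb and mt-Atp genes, without pseudogene names ending in -ps. Members had to reach log2 of 10 in 6 or more libraries of the tissue. This left 92 subunits of 22632 symbols in nerve (79 nuclear and 13 mitochondrial) and 94 of 20940 in muscle (81 nuclear and 13 mitochondrial). Cox6c2 and Ndufs6b were the 2 subunits under the level filter in nerve and passed it in muscle. The annotation lists Ndufb4c, Ndufs6b and Cox6c2 as processed pseudogenes, so their values may include reads of Ndufb4, Ndufs6 and Cox6c.

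The mice were singly housed and started their diets when 12 weeks old, and nerve and muscle were collected at 26 weeks. SD mice (the label for standard diet) ate 10% of calories as fat, HFD mice 60%, in a diet based on lard, and KD mice 90%, in one based on cocoa butter. The other regimens all began on HFD and changed at 18 weeks: DR mice went to the standard diet, KDI mice to the ketogenic diet, EX mice stayed on HFD and received a running wheel, and KDI_EX mice received both the ketogenic diet and a wheel. Nerve gave 47 libraries (SD 6, HFD 6 and 7 in each of the other groups) and muscle 49 (SD 8, KDI_EX 6 and 7 in each of the others). The labels give the genotype C57BL/6 for all of them and name no transgene or drug.

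The chain is made of large protein complexes in the inner mitochondrial membrane. Complex I takes electrons from NADH, complex III passes them from ubiquinol to cytochrome c, complex IV (cytochrome c oxidase) hands them to oxygen, and complex V makes ATP from the resulting proton gradient. Most subunits are nuclear genes whose proteins are imported, while a small core is transcribed from the mitochondrial DNA, and complex II, which is wholly nuclear, lies outside the symbol rule. Complex IV also has tissue forms: Cox6a2, Cox7a1 and Cox8b are the striated-muscle forms of Cox6a1, Cox7a2 and Cox8a, Cox4i2 is a form of Cox4i1 known from lung and from low oxygen, and Ndufa4l2 is a relative of Ndufa4 known as a target of hypoxia-inducible factor.

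The striated-muscle forms of complex IV and their partners changed order between the tissues, by a narrow margin in muscle for Cox7a1 and Cox7a2. The stretches before their start sites are therefore shown for the members with a RefSeq sequence at hand. RefSeq gave the 250 bases before the start, on build GRCm38.p6, for 64 of the 81 nuclear subunits. Each sequence reads 5′ to 3′ on the gene's strand and ends at the base before the start. Capitals mark matches to the NRF1 motif GCGCANGCG or to the E-box CANNTG, both searched on both strands. The 3 widely expressed forms were these.

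Cox6a1 promoter, chr5:115348959-115349208, minus strand: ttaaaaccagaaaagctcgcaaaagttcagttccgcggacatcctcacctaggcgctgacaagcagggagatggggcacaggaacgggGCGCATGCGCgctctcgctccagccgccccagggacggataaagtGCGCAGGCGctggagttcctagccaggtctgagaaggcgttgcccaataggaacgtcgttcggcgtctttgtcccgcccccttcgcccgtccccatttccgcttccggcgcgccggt

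Cox7a2 promoter, chr9:79759854-79760103, minus strand: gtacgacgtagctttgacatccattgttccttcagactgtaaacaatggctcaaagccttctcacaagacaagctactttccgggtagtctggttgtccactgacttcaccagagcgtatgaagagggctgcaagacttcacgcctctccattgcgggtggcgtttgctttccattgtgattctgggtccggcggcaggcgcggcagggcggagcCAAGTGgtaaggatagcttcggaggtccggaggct

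Cox8a promoter, chr19:7217617-7217866, minus strand: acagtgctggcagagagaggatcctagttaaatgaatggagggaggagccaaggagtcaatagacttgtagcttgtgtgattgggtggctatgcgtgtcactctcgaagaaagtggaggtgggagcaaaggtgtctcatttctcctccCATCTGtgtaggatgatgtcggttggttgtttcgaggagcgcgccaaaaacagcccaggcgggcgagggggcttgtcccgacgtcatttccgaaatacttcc

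The striated-muscle partners of Cox7a2 and Cox8a were these.

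Cox7a1 promoter, chr7:30183921-30184170, plus strand: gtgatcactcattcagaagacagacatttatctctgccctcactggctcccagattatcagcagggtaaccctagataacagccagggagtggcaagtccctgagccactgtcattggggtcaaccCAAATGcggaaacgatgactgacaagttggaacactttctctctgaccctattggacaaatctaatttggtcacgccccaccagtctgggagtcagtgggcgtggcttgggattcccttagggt

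Cox8b promoter, chr7:140900447-140900696, minus strand: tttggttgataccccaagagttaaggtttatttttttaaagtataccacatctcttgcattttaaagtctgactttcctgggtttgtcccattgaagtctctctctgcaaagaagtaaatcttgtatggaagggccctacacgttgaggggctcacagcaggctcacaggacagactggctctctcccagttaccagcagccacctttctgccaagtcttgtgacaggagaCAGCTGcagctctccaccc

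The Cox6a1 stretch held 3 NRF1 matches, of which a palindromic pair overlapped on opposite strands, 162 to 153 bases before the start, and the third lay 117 to 109 bases before it. NRF1 (nuclear respiratory factor 1) is known as a regulator of many nuclear genes for mitochondrial proteins. The other 4 stretches held no NRF1 match and 1 E-box each, the short motif bound by helix-loop-helix factors that include the myogenic ones. Over the nuclear subunits, 11 of 64 stretches (17.2%) held the NRF1 motif, against 5.33% of all 27025 stretches of that length in the table. These were Atp5g2, Atp5h, Atp5k, Atp5l, Cox6a1, Ndufa11, Ndufa5, Ndufa8, Ndufb4, Ndufs5 and Ndufs6. The E-box letters were in 40 of 64 (62.5%), against 66.0% of all. The ETS motif CCGGAAGT was in 3 of 64 (4.69%, against 2.93%), the ERR motif TCAAGGTCA in 1, Atp5g3 (1.56%, against 0.366%), and the YY1 motif AAGATGGCG in 0 (against 0.607%). All genes of the table served as background, not matched to the subunits for expression or base composition. These are matches of letters, and no binding was measured.

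The deposited values are log2 levels per symbol whose transform is not given in the sources used here, and sequencing depth is unknown. Both tissues carried their defining markers. All 13 myelin markers on the list had mean levels of at least 11.6 across nerve libraries, and Ckm, the muscle creatine kinase, stood at 18.4 to 19.3 across muscle libraries. Nerve libraries also held skeletal muscle messages: all 18 markers on the list passed the level filter there, Ckm ran from 6.94 to 13.7, and their mean deviation from the tissue average (the skeletal muscle score) ran from −1.71 to 4.22. The score reached at least 2.53 in 1 library or more of every nerve group except DR, where the highest was 1.07. In whole tissue, fewer cells of a type and less RNA per cell cannot be told apart.

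Mitochondrially encoded messages were the most abundant of the chain in both tissues. To compare genes, levels were divided by the length of the messenger (log2 per kb). This assumes that the deposited values are not already corrected for length, which the sources used here do not state. Short messages such as mt-Atp8 and mt-Nd4l fit this scale poorly, since they lie on the same transcripts as mt-Atp6 and mt-Nd4. On that scale 12 of the 13 stood above every nuclear subunit in nerve and in muscle, and the remaining one, mt-Nd4l, was below 9 nuclear subunits in nerve and 6 in muscle. The catalytic subunit of complex IV, mt-Co1, was highest at 18.65 in nerve and 20.32 in muscle. The order below it in nerve was mt-Cytb (17.71), mt-Co3 (17.68), mt-Atp6 (17.39), mt-Co2 (17.33), mt-Nd1 (17.29), mt-Nd4 (17.18), mt-Nd2 (16.52), mt-Atp8 (15.89), mt-Nd5 (15.65), mt-Nd6 (15.25), mt-Nd3 (14.25) and mt-Nd4l (12.95). Neighbours from mt-Atp6 to mt-Nd4 lay closer than the standard deviations within groups, which ran from 0.17 to 0.31 over the 13. The same 5 genes closed both lists in the same order, mt-Atp8, mt-Nd5, mt-Nd6, mt-Nd3 and mt-Nd4l, with muscle values of 17.82, 17.65, 17.21, 16.20 and 14.99.

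Among nuclear subunits the ATP synthase and complexes III and IV stood above complex I. In nerve the per-length medians were 11.29 for the 36 subunits of complex I, 11.94 for the 8 of complex III, 12.08 for the 18 of complex IV and 12.35 for the 17 of complex V. In muscle they were 12.74, 14.09, 14.09 and 14.23, for 37, 8, 19 and 17 subunits. The highest nuclear subunits in nerve were Cox4i1 (14.13), Atp5b, the catalytic beta subunit of the ATP synthase (13.45), and Cox6c (13.40). In muscle they were Ndufa4 (15.57) and the small ATP synthase subunits Atp5md (15.41) and Atp5e (15.34). These use the median length of each gene's protein-coding transcripts, and the muscle order depends on it: with the longest transcript Atp5e (15.34) led, followed by Atp5b (15.22) and Ndufa4 (15.16), and Atp5md stood at 12.49. The 3 leading nerve genes kept their order. The 2 tissues were normalised separately, so their values stand side by side and were not tested against each other.

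**Figure D1:**
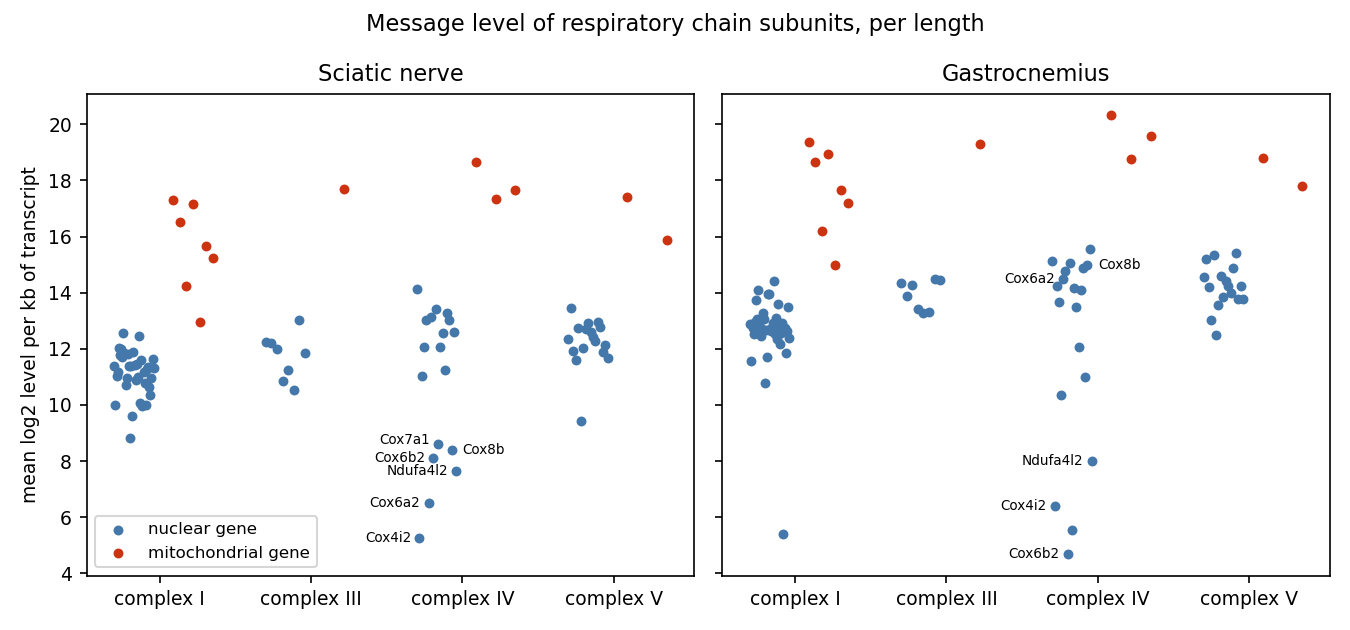
Mean log2 level per kb of transcript for each respiratory chain subunit, by complex, in sciatic nerve (left) and gastrocnemius (right), with nuclear genes in blue and mitochondrial genes in red. mt-Co1 tops both panels at 18.65 and 20.32, and Cox6a2 and Cox8b, low in nerve at 6.51 and 8.39, sit among the higher complex IV subunits in muscle at 14.47 and 14.97.

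The complex IV isoforms were ordered differently in the tissues. Per length, Cox6a2 stood 4.13 log2 units above Cox6a1 in muscle, and in nerve the difference was −6.54. Cox8b stood 3.99 above Cox8a in muscle, and in nerve the difference was −4.64. Cox7a1 exceeded Cox7a2 by only 0.70 in muscle, with a difference of −3.47 in nerve. Of the promoters shown above for these genes, only that of Cox6a1 held NRF1 matches. Cox7a2 and Cox8a, like Cox6a1 the less abundant forms per length in muscle and the more abundant in nerve, held none. For Cox7a2 the muscle order was narrow: without length, Cox7a1 minus Cox7a2 averaged 0.11 and ran from −0.26 to 0.46 over the 49 libraries. No sequence was at hand for Cox6a2, and a link between motif and level was not tested. The oxygen-linked forms were the lower ones in both tissues: Cox4i2 minus Cox4i1 was −8.88 in nerve and −8.70 in muscle, and Ndufa4l2 minus Ndufa4 was −4.95 and −7.55. Cox6b2, known as the testis form of Cox6b1, stood at 8.10 in nerve against 13.14 for Cox6b1, and at 4.70 in muscle against 14.76. The 3 genes for the c subunit of the ATP synthase ring, which encode the same mature protein, were ordered Atp5g3, Atp5g2 and Atp5g1 in both tissues, at 12.71, 12.01 and 9.43 in nerve and 14.61, 13.55 and 12.51 in muscle.

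No isoform balance differed between diet or running groups past the threshold. Here a balance is the difference of 2 log2 levels in a library, without length. In muscle, Cox6a2 minus Cox6a1 ran from 3.81 to 5.06 over the 49 libraries, Cox8b minus Cox8a from 2.80 to 3.74 and Cox7a1 minus Cox7a2 from −0.26 to 0.46. An exact two-sided permutation test over libraries was made for 5 balances in 7 comparisons of each tissue, with Benjamini-Hochberg adjustment over those 35, and none passed 0.05. The smallest p in nerve was for Ndufa4l2 minus Ndufa4, at −4.07 ± 0.19 (standard deviation, n = 7) in DR and −3.74 ± 0.17 (n = 6) in HFD, a difference of −0.33 with an exact permutation p of 0.00699 and an adjusted p of 0.245, where the smallest possible p is 0.00117. It was followed by Cox4i2 minus Cox4i1 in the same comparison, with a difference of −0.30 and an adjusted permutation p of 0.318. In muscle the smallest was Cox4i2 minus Cox4i1 in EX against HFD, with a difference of 0.16, an exact permutation p of 0.0466 and an adjusted p of 0.972.

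A single library decided whether any balance was called. Without the SD 1 muscle library, Cox6a2 minus Cox6a1 averaged 4.33 in KD and 4.65 in SD, an exact permutation p of 0.000583 and an adjusted p of 0.0204 over the 35 tests. Without the HFD 2 nerve library, Cox4i2 minus Cox4i1 averaged −8.96 in KD and −8.74 in HFD, with an exact permutation p of 0.00126 and an adjusted p of 0.0442.

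**Figure D2:**
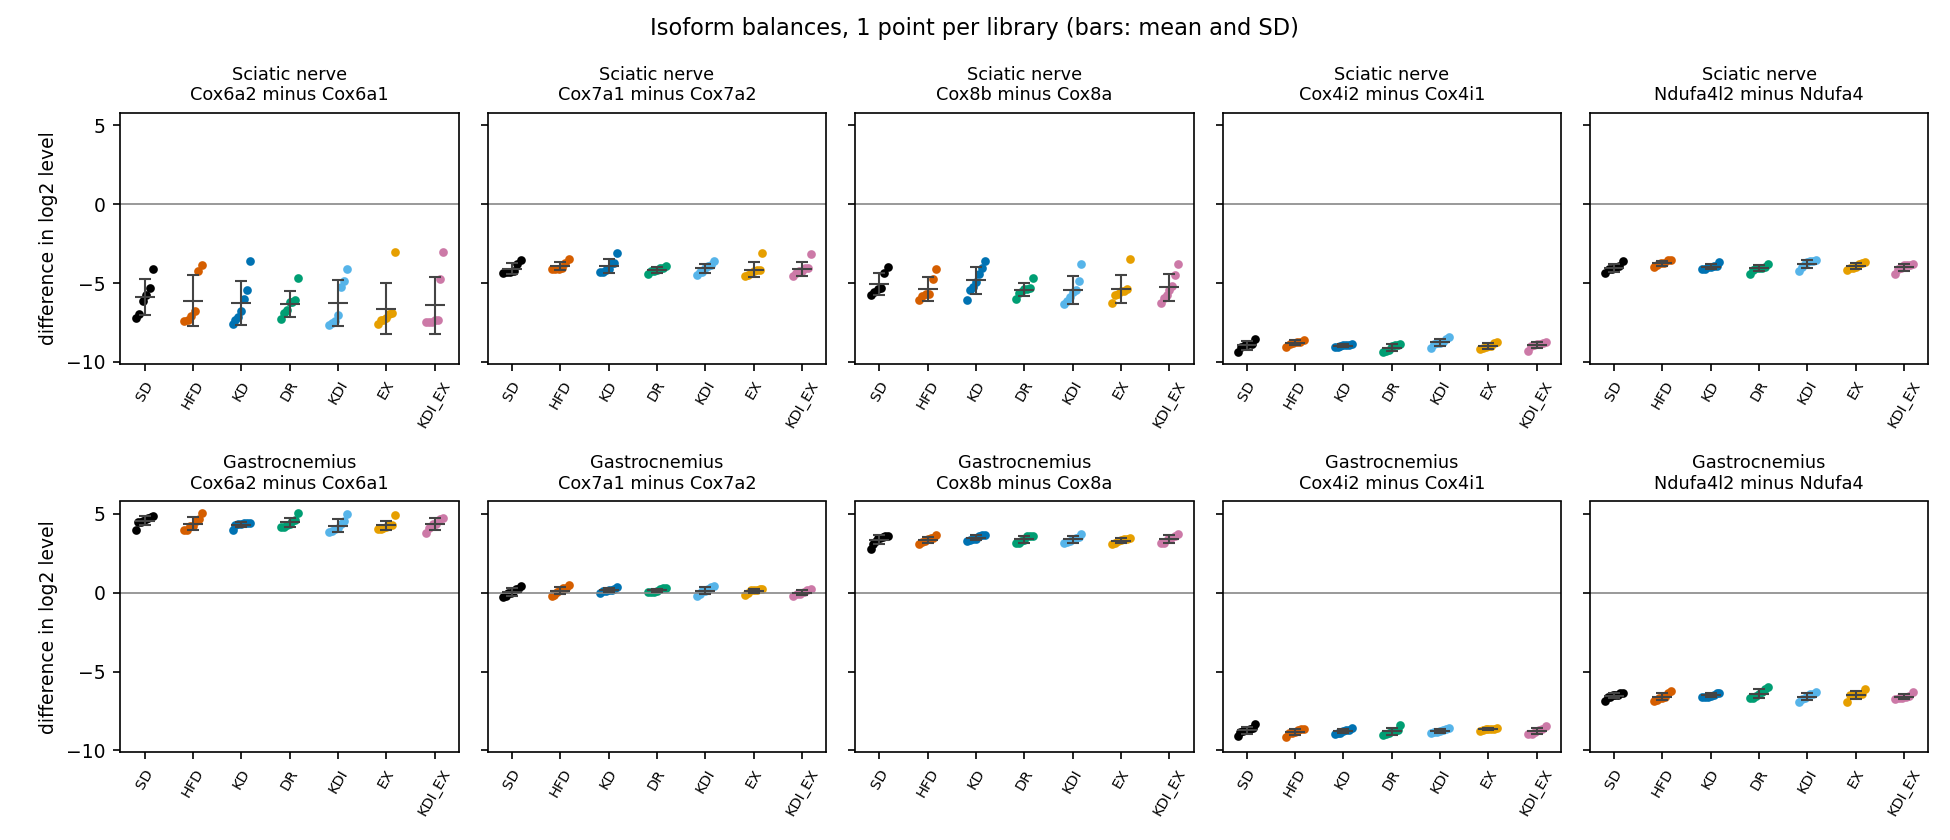
Isoform balance (log2 level of the first gene minus that of the second, no length correction) in each library, by group, in sciatic nerve (upper row) and gastrocnemius (lower row), with bars for the mean and standard deviation. Cox6a2 minus Cox6a1 lies between 3.81 and 5.06 in muscle and between −7.66 and −3.00 in nerve. Its standard deviation in the nerve groups ran from 0.83 in DR to 1.81 in KDI_EX.

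The muscle forms were scarce in nerve and varied there more than any other subunit, and this variation ran with skeletal muscle messages. Their standard deviations within groups were 1.43 for Cox6a2, 0.80 for Cox8b and 0.39 for Cox7a1, against a median of 0.18 over the nuclear subunits. In the 18 nerve libraries with a skeletal muscle score above 0, Cox6a2 ran from 5.95 to 9.21 (median 7.35), and in the other 29 from 4.51 to 6.01 (median 4.86). Cox8b ran from 6.64 to 8.63 (median 7.71) in the former and from 5.81 to 8.02 (median 6.45) in the latter, and Cox7a1 from 7.17 to 8.52 (7.70) and from 6.82 to 7.66 (7.23). The widely expressed partners did not separate in this way, with medians of 12.23 and 12.21 for Cox6a1, 11.49 and 11.44 for Cox7a2, and 12.18 and 12.13 for Cox8a. The highest Cox6a2 values belonged to EX 5 (9.21) and KDI_EX 7 (8.99), which also held the highest scores (4.22 and 4.14) and Ckm levels of 13.6 and 13.7. The mean deviation of the 13 myelin markers from the tissue average was −0.52 and −0.34 in these 2 libraries.

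Among the 29 nerve libraries with a skeletal muscle score of 0 or less, KD 6 had the highest Cox8b and Cox7a1. It held Cox8b at 8.02 and Cox7a1 at 7.66, while its skeletal muscle score was −0.65 and Cox6a2 stood at 5.38. It also held Ucp1, the uncoupling protein of brown fat, at 12.7, against 3.19 in the median nerve library, and brown fat is known to use Cox8b and Cox7a1. Ucp1 was next highest in KD 1 (9.70) and SD 5 (7.95), whose Cox8b levels were 7.75 and 7.77 at skeletal muscle scores of 1.66 and 1.42, and KDI_EX 6, with a like score (1.69) and Ucp1 at 3.30, had 7.77 too. KD 2 followed, with Ucp1 at 6.18, a score of −1.07 and the second highest Cox8b of those 29 libraries (7.36). The part of muscle and brown fat messages in these 3 isoforms was not tested beyond these values, and the 3 genes are left out of the plot of nerve differences.

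**Figure D3:**
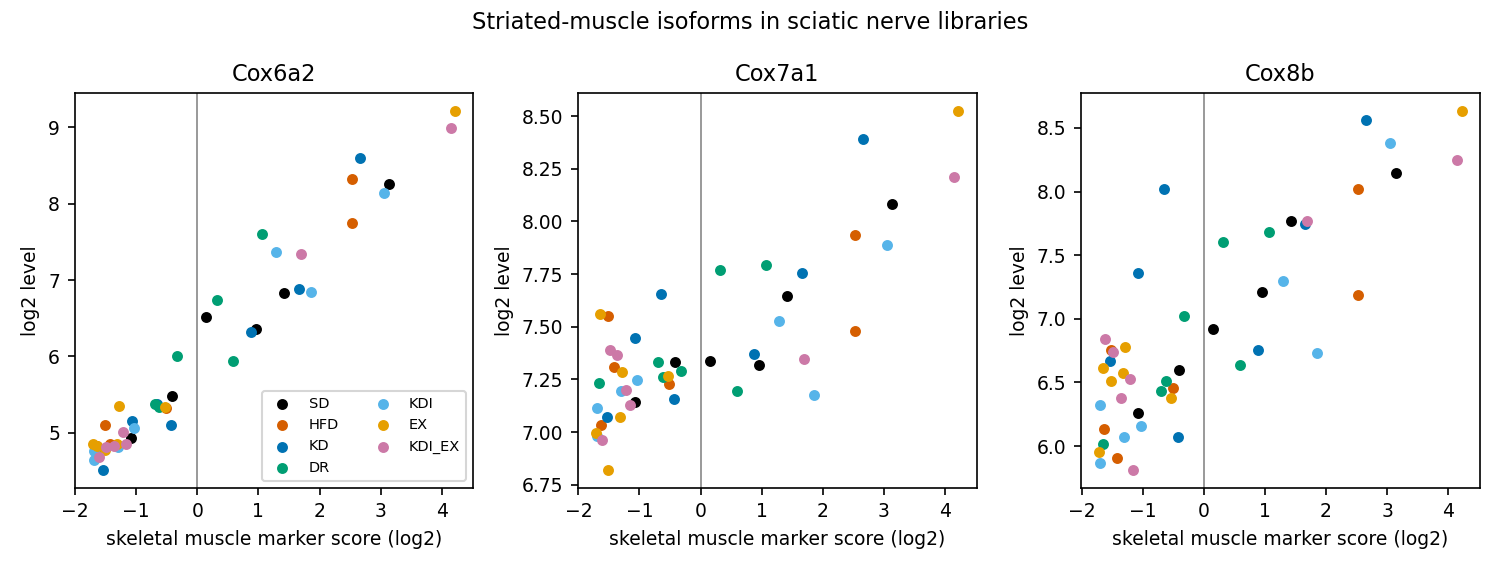
Log2 level of Cox6a2, Cox7a1 and Cox8b in each of the 47 nerve libraries against the skeletal muscle marker score (mean log2 deviation of 18 markers from the tissue mean), coloured by group. Cox6a2 is highest in EX 5 and KDI_EX 7, which have the highest scores (4.22 and 4.14), and Cox8b is highest in EX 5 (8.63). KD 5, with a score of 2.66, held Cox8b at 8.57 and Cox7a1 at 8.39, above Cox7a1 in KDI_EX 7 (8.21). The KD point for Cox8b at 8.02 with a score of −0.65 is KD 6.

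No subunit passed an adjusted p of 0.05 in any of the 9 comparisons of either tissue. Each tissue was fitted with limma over its 7 groups, and p-values were adjusted over all 17226 genes tested in nerve and 15748 in muscle. KD, DR, KDI and EX were compared with the same HFD libraries, and HFD and KD with the same SD libraries, so these comparisons are not independent of each other. In every two-group comparison the ranges of the 2 groups overlapped for all subunits. Over all genes such ranges rarely stood apart. In nerve they did for 0.319% of genes in HFD against SD, 0.0232% in KD against SD, 0.128% in KD against HFD, 0.232% in DR against HFD, 0.203% in KDI against HFD, 0.0813% in EX against HFD and 0.0174% in KDI_EX against KDI. In muscle the percentages, in the same order, were 0.222%, 0.406%, 0.318%, 0.0889%, 0.0508%, 0.0127% and 0.0318%, so a count of 0 is near the background. Calls were rare over all genes too, and counts of subunits are set beside the percentage of all genes tested.

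In nerve HFD against SD, most nuclear subunits of each complex had negative differences, with a median of −0.15, against −0.01 over all genes. Of the 79 nuclear subunits, 72 were negative and 7 positive, and the medians were −0.15 for complexes I and III, −0.17 for complex IV and −0.11 for complex V. At an adjusted p under 0.05 the count was 0 of 92 (0% of all genes). At an unadjusted p under 0.05 it was 18 of 92 (19.6%), all lower, beside 18.2% of all genes in both directions and 8.19% that were lower. The 18 comprised Uqcrh of complex III, 7 nuclear subunits of complex I (Ndufb8, Ndufa6, Ndufb11, Ndufs5, Ndufb7, Ndufb9 and Ndufa10), 4 of complex IV (Cox6c, Cox7b, Cox7c and Cox7a2), Atp5md and Atp5e of complex V, and mt-Co2, mt-Atp6, mt-Nd3 and mt-Co3. The 95% interval of the difference lay within ±0.5 for 82 of the 92.

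The smallest p was for mt-Co2, the subunit of complex IV that receives electrons from cytochrome c. Its log2 level ran from 16.55 through a median of 16.96 to 17.20 in the 6 SD libraries, and from 16.37 through 16.62 to 16.89 in the 6 HFD libraries. All 6 HFD libraries lay below the SD mean while the ranges overlapped, and the difference was −0.31 ± 0.10 (standard error; limma, adjusted p = 0.171). mt-Atp6, the proton channel subunit of the ATP synthase, ran from 16.63 (median 17.00) to 17.17 in SD and from 16.48 (median 16.60) to 17.14 in HFD. It was below the SD mean in 5 of 6 HFD libraries, with a difference of −0.29 ± 0.11 (limma, adjusted p = 0.1997). Uqcrh, the acidic hinge subunit of complex III, ran from 11.96 (median 12.09) to 12.23 in SD and from 11.57 (median 11.81) to 12.13 in HFD. Its difference was −0.26 ± 0.10, also in 5 of 6 libraries (limma, adjusted p = 0.204).

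The mitochondrial messages split in this comparison. mt-Co2, mt-Atp6, mt-Nd3 and mt-Co3 stood at −0.31, −0.29, −0.27 and −0.22, and the median over the 13 was −0.02 with 5 positive. That sign rested on HFD 5: the median was 0.09 without it, and 0.11 with 8 positive under library quality weights. mt-Co2, mt-Atp6 and mt-Co3 are neighbours on the mitochondrial genome, but mt-Atp8, which lies between mt-Co2 and mt-Atp6 and overlaps the latter, averaged 13.44 ± 0.20 (standard deviation, n = 6) in SD and 13.53 ± 0.39 (n = 6) in HFD. mt-Co1, at 19.23 ± 0.15 and 19.23 ± 0.33, and mt-Cytb, at 17.88 ± 0.15 and 17.85 ± 0.31, had like means in both groups.

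Single nerve libraries weighed on this comparison. Without HFD 5, the median of the nuclear subunits was −0.21, 1 subunit was called (Uqcrh, −0.31 ± 0.10; limma, adjusted p = 0.0456; 9.57% of all genes were called), and 46 had an unadjusted p under 0.05, beside 29.9% of all genes. Without HFD 6, the median was −0.11 and 2 subunits had an unadjusted p under 0.05, beside 10.3% of all genes. Limma's library quality weights gave DR 2, HFD 5 and KDI_EX 5 the lowest weights (0.23, 0.29 and 0.33). With them, 34 of 92 subunits (37.0%) were called, all lower, beside 22% of all genes in both directions (3787 of 17226). Of all genes, 1699 were called as lower. The smallest adjusted p among the 34 subunits under these weights was that of Ndufb8, at −0.28 ± 0.07 (limma, adjusted p = 0.00860). HFD 5 also had the lowest mean deviation of the mitochondrial messages in the HFD group, at −0.54 from the tissue average.

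DR against HFD in nerve, the return to standard diet, had the opposite sign. The median of the nuclear subunits was 0.15, with 74 of 79 positive, including all 36 of complex I and all 17 of complex V, beside a median of 0.00 over all genes. No subunit was called (0 of 92, 0% of all genes). At an unadjusted p under 0.05 there were 14 (15.2%), all higher, beside 7.38% of all genes in both directions and 3.98% that were higher. Ndufv2, an iron-sulfur subunit of complex I, ran from 11.81 (median 11.94) to 12.06 in HFD and from 11.86 (median 12.11) to 12.62 in DR, a difference of 0.19 ± 0.08. Ndufc2, a membrane-arm subunit of complex I, ran from 10.56 (median 10.63) to 10.86 and from 10.64 (median 10.80) to 11.47, a difference of 0.21 ± 0.09. Ndufb11, also of the membrane arm, ran from 10.88 (median 11.12) to 11.34 and from 11.01 (median 11.33) to 11.90, a difference of 0.21 ± 0.09. All 3 had an adjusted p of 0.660 (limma), were above the HFD mean in 6 of 7 DR libraries and overlapped between groups.

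The highest value of each of these belonged to DR 2, whose nuclear subunits averaged 0.60 above the tissue mean, against 0.14 for the next DR library. Without DR 2 the nuclear median was 0.06 and 1 subunit had an unadjusted p under 0.05, a lower one, beside 4.45% of all genes. Without HFD 5 the median was 0.20 and 49 of 92 (53.3%) had, all higher, beside 13.2% of all genes in both directions. Of all 17226 genes, 1207 were higher at that threshold.

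The other nerve comparisons stayed closer to 0. KD against SD had a nuclear median of −0.06 (10 of 79 positive), 0 calls beside 0.00581% of all genes, and 0 subunits at an unadjusted p under 0.05 beside 5.28%. Its smallest p-values belonged to mt-Atp8 (0.21 ± 0.13), Ndufb8 (−0.13 ± 0.09) and Ndufa10 (−0.09 ± 0.06), all at an adjusted p of 0.822 (limma). KD against HFD had a median of 0.09 (72 of 79) and all 13 mitochondrial messages positive (6 of 13 under quality weights), with 0 calls beside 0.0348% and 0 at an unadjusted p under 0.05 beside 5.63%. mt-Co3 led it, from 16.95 (median 17.11) to 17.49 in HFD and from 17.22 (median 17.37) to 17.56 in KD, a difference of 0.19 ± 0.10 (limma, adjusted p = 0.899), followed by mt-Nd3 (0.21 ± 0.11) and Ndufb11 (0.17 ± 0.09).

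KDI against HFD, the ketogenic diet after a start on HFD, had a nuclear median of 0.02 (56 of 79 positive), 0 calls beside 0.0232% of all genes and 0 at an unadjusted p under 0.05 beside 4.27%. mt-Co2 (0.13 ± 0.10), Cox6b2 (−0.06 ± 0.06) and Ndufb11 (0.09 ± 0.09) had the smallest p-values, all with an adjusted p of 0.9999 (limma). EX against HFD had a median of 0.07 (66 of 79), 0 calls beside 0% and 1 subunit at an unadjusted p under 0.05 beside 7.17%. That one was Atp5md, a small membrane subunit known for its role in ATP synthase dimers, from 10.87 (median 11.14) to 11.51 in HFD and from 11.08 (median 11.38) to 11.77 in EX, a difference of 0.28 ± 0.13 (limma, adjusted p = 0.681). Cox6c (0.22 ± 0.12) and Cox7b (0.17 ± 0.10) followed.

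Running on the ketogenic diet, KDI_EX against KDI, had a nuclear median of 0.05 (72 of 79 positive), 0 calls beside 0% and 0 at an unadjusted p under 0.05 beside 4.65%. Cox4i2 (−0.14 ± 0.09) and Ndufb5 (0.10 ± 0.07) were among those with the smallest p-values. The interaction, the difference with running on the ketogenic diet minus that on HFD, had a median of −0.03 (26 of 79), 0 calls beside 0% and 0 at an unadjusted p under 0.05 beside 2.1%. Its leading subunits were Atp5md (−0.23 ± 0.18), Ndufs5 (−0.15 ± 0.13) and Ndufb8 (−0.13 ± 0.13). The test of any difference among the 7 groups called 0 subunits beside 0.151% of all genes (10.6% at an unadjusted p under 0.05), with a smallest adjusted p of 0.556 (limma), led by mt-Co2, Ndufa13 and Uqcrh. The 95% interval lay within ±0.5 for 89 of 92 subunits in KD against SD, KD, DR, KDI and EX against HFD, 90 in KDI_EX against KDI and 87 in the interaction.

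**Figure D4:**
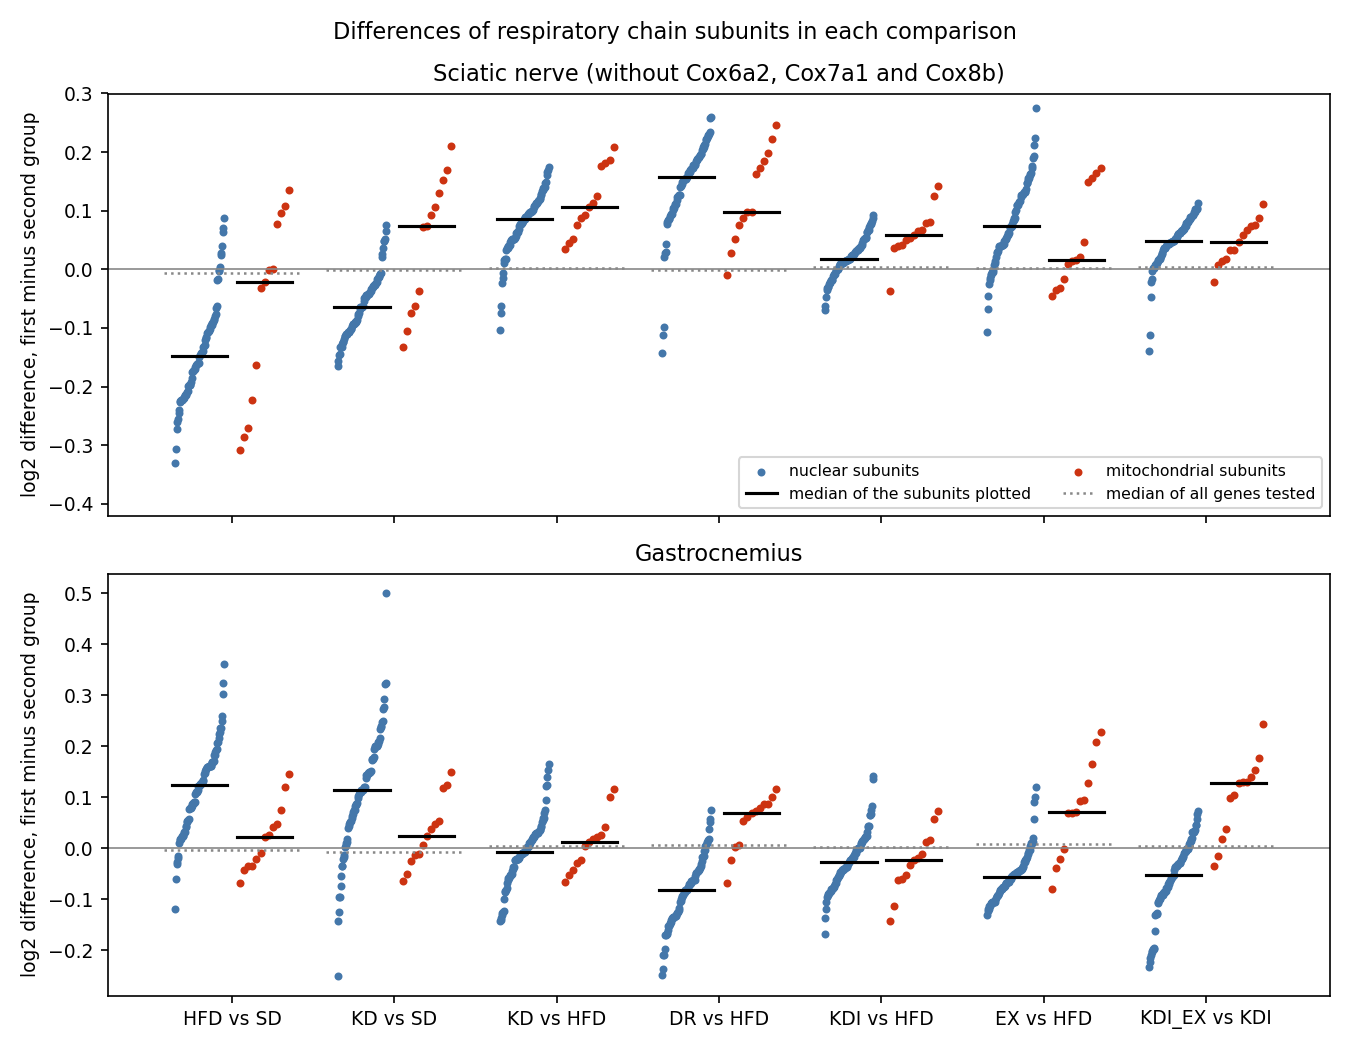
Log2 difference of each subunit (first minus second group) in the 7 two-group comparisons, sorted within nuclear (blue) and mitochondrial (red) subunits, in sciatic nerve without Cox6a2, Cox7a1 and Cox8b (upper panel) and gastrocnemius (lower panel). Black lines are medians of the points and dotted lines medians of all genes tested. Nuclear subunits lie mostly below 0 in nerve HFD vs SD and mostly above 0 in muscle HFD vs SD, and no point passed an adjusted p of 0.05.

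In muscle the nuclear subunits leaned the other way on the fat-rich diets. HFD against SD had a nuclear median of 0.12 with 75 of 81 positive, beside a median of −0.01 over all genes, and medians of 0.11 for complexes I and V, 0.08 for complex III and 0.16 for complex IV. No subunit was called, beside 0.0191% of all genes, and 2 of 94 (2.13%) had an unadjusted p under 0.05, both higher, beside 8.68% of all genes in both directions and 3.39% that were higher. The 2 were Ndufs6b (0.23 ± 0.10; limma, adjusted p = 0.510), which the annotation lists as a pseudogene of low level, and Atp5md. Atp5md ran from 13.38 (median 13.76) to 14.02 in SD and from 13.76 (median 14.06) to 14.61 in HFD. All 7 HFD libraries lay above the SD mean, and the difference was 0.32 ± 0.16 (limma, adjusted p = 0.571). Cox8a, the less abundant partner of Cox8b in muscle, ran from 9.86 (median 10.02) to 10.15 in SD and from 10.04 (median 10.28) to 10.37 in HFD, a difference of 0.24 ± 0.12 (limma, adjusted p = 0.579). A score of 10 slow-fibre markers, their mean deviation from the tissue average, was uneven over these groups. It ran from −0.82 (median 0.69) to 1.11 in HFD, from −1.74 (median −0.38) to 1.28 in SD and from −1.87 (median −0.26) to 0.40 in KD. A link between fibre make-up and the subunit medians was not tested.

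KD against SD had a nuclear median of 0.11 with 69 of 81 positive, 0 calls beside 0.197% of all genes, and 7 subunits at an unadjusted p under 0.05, beside 10.2%. Of these, 6 (6.38%) were higher, beside 5.07% of all genes, and Ndufs1, the large iron-sulfur subunit of complex I, was lower (−0.25 ± 0.12; limma, adjusted p = 0.482). Cox7a2l, known for joining complexes III and IV into supercomplexes, ran from 11.91 (median 12.12) to 12.17 in SD and from 12.12 (median 12.38) to 12.48 in KD. All 7 KD libraries lay above the SD mean with a narrow overlap of the ranges, and the difference was 0.22 ± 0.08 (limma, adjusted p = 0.324), the smallest of the subunits in muscle. Ndufs6b followed (0.25 ± 0.10; limma, adjusted p = 0.434). Ndufa3, an accessory subunit of complex I, ran from 12.07 (median 12.43) to 12.63 and from 12.42 (median 12.81) to 12.86, a difference of 0.28 ± 0.12 (limma, adjusted p = 0.461). Atp5e, the epsilon subunit of the ATP synthase, had the largest difference at 0.50 ± 0.24, from 13.40 (median 13.77) to 14.34 in SD and from 13.90 (median 14.40) to 14.52 in KD. Its standard deviation within groups, 0.48, was also the largest of the muscle subunits.

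KD against HFD in muscle had a nuclear median of −0.01 (37 of 81 positive), 0 calls beside 0.318% of all genes and 0 at an unadjusted p under 0.05 beside 5.89%. With the adipocyte and myelin marker scores as covariates the median was −0.12 (6 of 81), that of DR against HFD −0.16 (3 of 81), of KDI_EX against KDI −0.14 (0 of 81), of HFD against SD 0.19 (76 of 81) and of KD against SD 0.06 (59 of 81), with 0 calls in each. KD against HFD was led by Cox6b2 (0.17 ± 0.08; limma, adjusted p = 0.869) and the complex I subunits Ndufa9 and Ndufv1 (both −0.14 ± 0.09). DR against HFD had a median of −0.08 (10 of 81), 0 calls beside 0.0254% and 1 at an unadjusted p under 0.05 beside 5.04%. That one was Cox8a, from 9.52 (median 10.09) to 10.20 in DR, with all 7 libraries below the HFD mean and a difference of −0.25 ± 0.12 (limma, adjusted p = 0.985). Cox8b (−0.24 ± 0.15) and Cox6c2 (−0.14 ± 0.10) followed. KDI against HFD had a median of −0.03 (23 of 81), 0 calls beside 0.0318% and 0 at an unadjusted p under 0.05 beside 2.62%, with Cox6b2 (0.14 ± 0.08), Cox6a2 (−0.17 ± 0.13) and Ndufa13 (−0.14 ± 0.11) in front.

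With running, the nuclear and mitochondrial medians of muscle had opposite signs in the fit without covariates or weights. In EX against HFD the nuclear median was −0.06 (10 of 81 positive) and the mitochondrial one 0.07 (9 of 13), with 0 calls beside 0% of all genes and 0 subunits at an unadjusted p under 0.05 beside 2.02%. mt-Atp8 (0.21 ± 0.13), mt-Nd4l (0.23 ± 0.15) and Atp5g2 (−0.11 ± 0.09) led it. In KDI_EX against KDI the nuclear median was −0.05 (16 of 81) and the mitochondrial one 0.13 (11 of 13), with 0 calls beside 0% and 0 at an unadjusted p under 0.05 beside 4.72%. Cox8a (−0.22 ± 0.13), mt-Atp6 (0.24 ± 0.16) and Atp5l (−0.20 ± 0.14) led it. mt-Atp6 ran from 17.88 (median 18.22) to 18.43 in KDI and from 18.00 (median 18.28) to 19.09 in KDI_EX, so the medians were closer than the means. The opposite signs of EX against HFD depended on the setting. With transcript length as a covariate the nuclear median was 0.03 (67 of 81 positive) beside 0.07 for the mitochondrial one, with quality weights they were −0.15 and −0.05, and without EX 7 they were −0.10 and 0.00. In KDI_EX against KDI the mitochondrial median ran from 0.03 without KDI_EX 4 to 0.25 without KDI_EX 6, and was 0.00 after quantile normalisation. The interaction had medians of 0.01 and 0.05, 0 calls beside 0% and 0 at an unadjusted p under 0.05 beside 3.31%, led by Uqcrc2 (−0.20 ± 0.15), mt-Atp6 (0.28 ± 0.22) and mt-Atp8 (−0.24 ± 0.19). Any difference among the 7 groups called 0 subunits beside 0.718% of all genes (8.38% at an unadjusted p under 0.05), with a smallest adjusted p of 0.734 (limma), led by Cox6b2, Cox7a2l and Cox8a. The 95% interval lay within ±0.5 for 84 to 93 of the 94 subunits in the two-group comparisons and for 75 in the interaction.

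The nuclear medians of the other comparisons also depended on single libraries. In nerve, KD against HFD ran from 0.05 without HFD 6 to 0.14 without HFD 5, EX against HFD from 0.03 without EX 5 to 0.12 without HFD 5, and KDI against HFD from −0.01 without HFD 6 to 0.07 without HFD 5. KD against SD ran from −0.10 without SD 2 to −0.02 without KD 4, and KDI_EX against KDI from 0.01 without KDI_EX 5 to 0.08 without KDI 3. Without HFD 5, 12 subunits of EX against HFD had an unadjusted p under 0.05, all higher, beside 15% of all genes in both directions. Without HFD 3, 4 of KD against HFD had, all higher, beside 7.56% in both directions. In these nerve comparisons HFD 5 and HFD 6, the HFD libraries with the highest and lowest nuclear subunits (0.15 and −0.23 from the tissue mean), decided the range most often.

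In muscle, the nuclear median of HFD against SD ran from 0.08 without HFD 1 to 0.17 without HFD 2, and that of KD against SD from 0.07 without SD 1 to 0.15 without KD 6. DR against HFD ran from −0.14 without DR 2 to −0.04 without DR 1, EX against HFD from −0.10 without HFD 2 to −0.01 without EX 3, and KDI_EX against KDI from −0.13 without KDI_EX 3 to 0.00 without KDI_EX 1. The sign turned in KD against HFD (−0.05 without HFD 2, 0.05 without HFD 1) and in KDI against HFD (−0.07 and 0.01 without the same libraries). At an unadjusted p under 0.05, HFD against SD had 0 subunits without HFD 1 (6.38% of all genes) and 5 without HFD 2 (10.3%), and KD against SD had 1 without KD 2 (7.72%) and 11 without SD 4 (9.93%). DR against HFD had 5, all lower, without DR 2 (6.64% in both directions), and KDI_EX against KDI had 8 without KDI_EX 6 (13.3%).

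The group means of single mitochondrial messages spanned 0.09 (mt-Nd4) to 0.31 (mt-Co2) log2 units in nerve and 0.12 (mt-Nd2) to 0.28 (mt-Nd4l) in muscle. In muscle mt-Co1 averaged between 20.88 ± 0.22 (standard deviation, n = 7) in HFD and 21.05 ± 0.33 (n = 7) in EX, and mt-Nd1 between 19.24 ± 0.29 (n = 7) in HFD and 19.41 ± 0.40 (n = 6) in KDI_EX. In nerve mt-Co1 averaged between 19.23 ± 0.15 (n = 6) in SD and 19.33 ± 0.15 (n = 7) in KD, a span smaller than the standard deviation in any group but DR (0.09). mt-Nd6, the one subunit read from the other strand of the mitochondrial DNA, averaged between 14.24 ± 0.23 (n = 6) in HFD and 14.40 ± 0.23 (n = 6) in SD in nerve, and between 16.19 ± 0.15 (n = 8) in SD and 16.36 ± 0.41 (n = 6) in KDI_EX in muscle.

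The nuclear subunits moved together from library to library, and the movement ran with a property that the symbol rule did not use, transcript length. Their messengers are short, with a median of 718.5 bases over the 73 nuclear subunits used for a mean deviation per library. In each library the slope of log2 level on log2 transcript length was taken over 8206 other genes in nerve and 6292 in muscle. Of the 19 nerve libraries with a slope below their group mean, meaning that short transcripts stood higher, 16 had nuclear subunits above their group mean, and of the 28 with a slope above it, 22 had them below. In muscle the counts were 19 of 22 and 22 of 27. The mitochondrial messages did not follow, with 7 of 19 and 13 of 28 in nerve, and 12 of 22 and 15 of 27 in muscle.

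Within the nuclear subunits, the shorter ones differed more. In nerve HFD against SD the median was −0.20 for the 40 up to the median length and −0.11 for the 39 above it, and in muscle HFD against SD it was 0.16 for 41 and 0.08 for 40. Muscle KD against SD had 0.15 and 0.06, and muscle DR against HFD −0.13 and −0.05. Across the 73 nuclear subunits, Spearman's rho between length and the standard deviation within groups was −0.66 in nerve and −0.59 in muscle, a description over genes that share their libraries. Cytosolic ribosomal protein genes, which are short and lie outside the chain, had a median of −0.23 in nerve HFD against SD and 0.20 in DR against HFD, and of 0.15 and 0.23 in muscle HFD and KD against SD.

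With the slope of each library as a covariate, an alternative chosen after seeing the data, the nuclear median of nerve HFD against SD was 0.02 (52 of 79 positive) and that of DR against HFD 0.04 (62 of 79). In muscle it was 0.01 (54 of 81) for HFD against SD, 0.00 (43 of 81) for KD against SD and 0.00 (43 of 81) for DR against HFD. The mitochondrial median of nerve HFD against SD became −0.09, with 2 of 13 positive. No subunit was called in any comparison of this fit. The slope itself differed between groups. In nerve it averaged −0.040 in SD (−0.076 to −0.002), 0.028 in HFD (−0.110 to 0.092) and −0.020 in DR. In muscle it averaged 0.022 in SD, −0.026 in HFD and in KD, and 0.014 in DR. The covariate can thus take up part of a group difference, and the 2 cannot be told apart in this fit. Whether the slope follows diet, RNA quality, library preparation or the tissue was not tested.

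**Figure D5:**
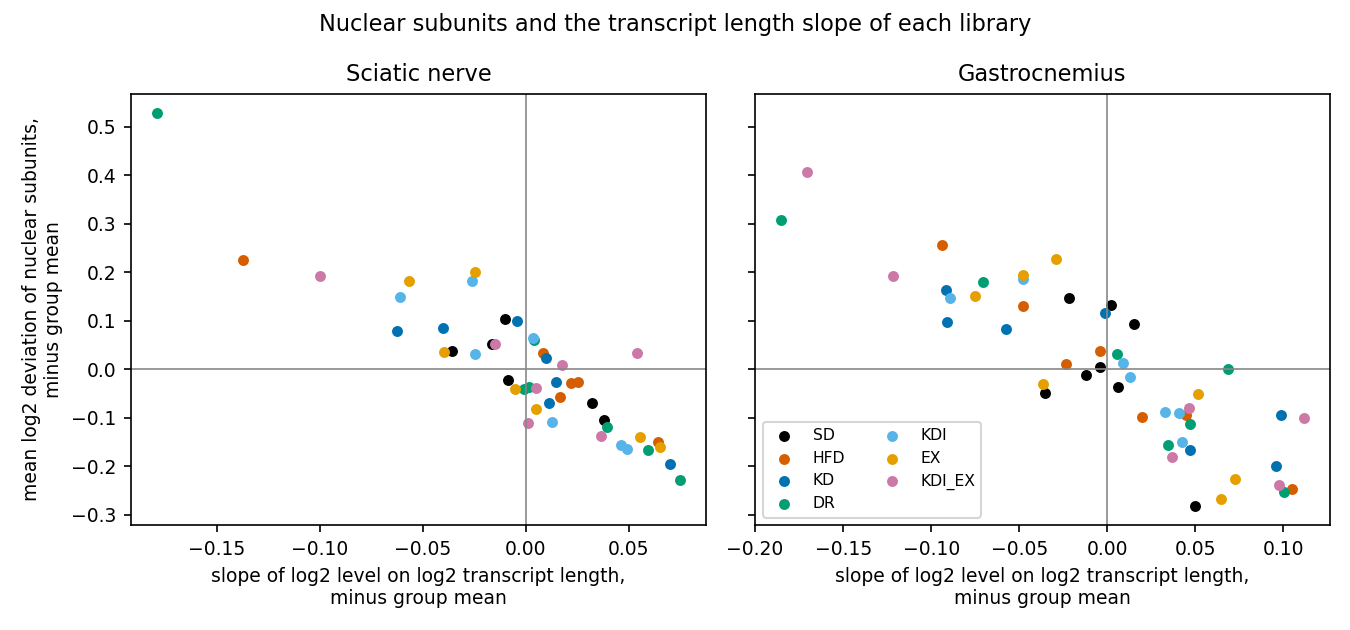
Mean log2 deviation of 73 nuclear subunits in each library, minus its group mean, against the slope of log2 level on log2 transcript length over other genes, minus its group mean, in sciatic nerve (left) and gastrocnemius (right), coloured by group. Libraries with lower slopes lie higher, in 16 of 19 nerve and 19 of 22 muscle libraries with a slope below the group mean, and the uppermost nerve point is DR 2.

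Genes that build and run the chain but lie outside the symbol rule were not called in any comparison of either tissue. In nerve HFD against SD, 16 of 78 proteins of the mitochondrial ribosome, which translates the mitochondrial messages, had an unadjusted p under 0.05 (20.5%), all lower, with a median of −0.10. So had 6 of 16 genes that copy and express mitochondrial DNA (37.5%, median −0.08) and 8 of 42 assembly factors (19.0%, median −0.05), all lower, and 0 of 7 genes of complex II, cytochrome c and related subunits (median −0.06). The 11 nuclear regulators had a median of 0.04, with 2 higher (18.2%). Over all genes the share was 18.2%, and 8.19% for lower ones, so the shares of the mitochondrial ribosome, the assembly factors and the regulators in both directions lay near that of all genes. The count for the mitochondrial ribosome was 44 without HFD 5, beside 29.9% of all genes in both directions, and 12 without HFD 6, beside 10.3%. Ssbp1, the single-strand binding protein of mitochondrial DNA, had a difference of −0.19 ± 0.06 (limma, adjusted p = 0.163), and Mterf3, a repressor of mitochondrial transcription, −0.12 ± 0.04 (limma, adjusted p = 0.167). In DR against HFD all 78 ribosomal proteins of the mitochondrion were positive, with a median of 0.10 and 21 (26.9%) at an unadjusted p under 0.05, all higher, beside 7.38% of all genes and 3.98% that were higher. Without DR 2 the median was 0.04, 65 of 78 were positive and 7 had an unadjusted p under 0.05, beside 4.45% of all genes in both directions. Polg2, the accessory subunit of the mitochondrial DNA polymerase, stood at 0.19 ± 0.06 (limma, adjusted p = 0.541). In muscle the smallest p of these lists was for Tfb1m, the methyltransferase of the mitochondrial small ribosomal RNA, at −0.24 ± 0.06 in KD against SD (limma, adjusted p = 0.0794). In that comparison the 5 lists had medians between −0.08 (12 nuclear regulators) and 0.03 (78 mitochondrial ribosomal proteins), while the nuclear subunits stood at 0.11.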

How the data were processed

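Messenger RNA was measured by paired-end sequencing of NEBNext Ultra libraries, per the labels' protocols, which do not state strand. The submitters' processing notes list build GRCm38, STAR 2.7.8a, RSEM 1.3.3, cutadapt 2.3 and DESeq2 (without a version), with FastQC and MultiQC, with no role. The authors deposited 1 log2 value per symbol and library. How these log2 values were scaled is not given in the sources used here, counts and depth are not in the files, and no counting error can be given. If values of low genes were shrunken, their differences are understated.

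Groups came from the labels, which name no batch or mouse, so p-values measure the spread between libraries, which may be technical. The members, gene lists, tests and alternatives were chosen with earlier results of these data known. Genes reaching log2 of 10 in 6 libraries of a tissue were tested with limma 3.58.1 (R 4.3.3; trended, robust prior), all 7 groups in 1 fit, two-sided, with Benjamini-Hochberg adjustment over all genes tested and a threshold of 0.05. The 3 subunits with the smallest p are named in each comparison, and the mitochondrial messages and isoform pairs regardless of p; some results are not reported here. Transcript lengths are GENCODE medians over protein-coding transcripts on GRCm38, and promoter sequences are from RefSeq. Scripts were tested on simulated data. The alternatives were no level filter, quantile normalisation, quality weights, marker score covariates, fits of the compared groups alone and leaving out each library. Further ones were a transcript length covariate and leaving out 2 libraries at once, EX 5 and KDI_EX 7 in nerve, and DR 1 and KDI_EX 6 in muscle. Nerve DR 2 and muscle SD 1, the libraries flagged most often below, were not in these pairs.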

Additional observations from a re-analysis of the deposited data

Results flagged for a closer look

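A library was singled out where its value lay far from all others of its group, by Dixon's criterion at the 95% level in groups of 6 to 8 libraries. Of 651 groups of values tested, 50 met it, and chance alone gives about 1 in 20. The value of the library and that of the nearest other library of its group are given, as log2 levels, as differences of log2 levels for isoform balances, or as mean deviations from the tissue average. These libraries were kept in the results given above, except where a result is stated as without a named library. No explanation was tested.

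In sciatic nerve, DR 2 stood apart in 12 values, among them mean deviation of the nuclear subunits (0.60, nearest 0.14), Atp5g3 (12.87, nearest 12.38), Cox4i1 (14.38, nearest 13.82), Cox6a1 (12.94, nearest 12.29) and Cox8a (12.99, nearest 12.35). DR 2 also stood apart in Ndufa4 (12.35, nearest 11.65), Ndufa4l2 (7.96, nearest 7.503), Ndufb5 (11.24, nearest 10.89), Ndufb8 (12.17, nearest 11.58) and Ndufc2 (11.47, nearest 10.98). The remaining ones in DR 2 were Ndufv2 (12.62, nearest 12.17) and mt-Nd1 (17.52, nearest 17.28). All 12 of its values were the highest of the DR group. EX 5 stood apart in 8 values, among them Cox6a2 minus Cox6a1 (−3.02, nearest −6.92), Cox7a1 minus Cox7a2 (−3.08, nearest −4.17), Cox8b minus Cox8a (−3.46, nearest −5.35), Atp5g1 (11.16, nearest 10.87) and Atp5g3 (12.73, nearest 12.35). EX 5 also stood apart in Cox6a2 (9.21, nearest 5.35), Cox6b2 (7.07, nearest 6.88) and Cox8b (8.63, nearest 6.78). All were the highest of the EX group, and this library had the highest skeletal muscle score of all nerve libraries. KDI_EX 5 stood apart in Cox6b1 (12.39, nearest 12.10), Cox7a2l (12.94, nearest 12.73) and Uqcrh (12.24, nearest 11.96). KDI_EX 7 stood apart in Cox7a1 minus Cox7a2 (−3.14, nearest −4.06), Atp5g1 (11.21, nearest 10.88) and Cox7a1 (8.21, nearest 7.39). HFD 5 stood apart in Atp5g2 (11.47, nearest 11.21) and mt-Nd5 (15.52, nearest 16.50). SD 5 stood apart in mt-Atp6 (16.63, nearest 16.98) and mt-Co3 (17.11, nearest 17.42). KD 4 stood apart in Ndufc2 (10.49, nearest 10.76). SD 6 stood apart in Ndufc2 (10.74, nearest 10.86).

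In gastrocnemius, SD 1 stood apart in mean deviation of the nuclear subunits (−0.34, nearest −0.11), Cox6a2 minus Cox6a1 (4.01, nearest 4.47), Atp5g2 (12.63, nearest 12.77), Cox7a2 (12.51, nearest 12.75), Ndufa13 (12.57, nearest 12.82) and Ndufa9 (12.91, nearest 13.11). All were the lowest of the SD group. KDI_EX 3 stood apart in Atp5g3 (14.86, nearest 14.17), Ndufa13 (13.29, nearest 12.75) and mt-Nd3 (15.62, nearest 14.71). DR 2 stood apart in Atp5g2 (13.24, nearest 12.76) and Cox7a2l (12.58, nearest 12.16). DR 1 stood apart in Cox6a1 (8.83, nearest 9.47). EX 7 stood apart in Cox6a2 minus Cox6a1 (4.91, nearest 4.32). KD 4 stood apart in Cox6a2 minus Cox6a1 (3.97, nearest 4.29). KD 5 stood apart in mt-Co1 (21.13, nearest 20.91). KDI 1 stood apart in Ndufa4l2 (7.54, nearest 7.86). KDI 3 stood apart in Atp5g1 (14.22, nearest 13.92). KDI 4 stood apart in Ndufs6b (4.07, nearest 3.88).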

How the results depend on the processing

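Leaving out 1 library at a time gave 0 to 1 calls for nerve HFD against SD (1 without HFD 5), 0 to 1 called isoform balances in nerve (1 without HFD 2) and 0 to 1 in muscle (1 without SD 1), and 0 calls in the other comparisons. Under library quality weights nerve HFD against SD had 34 called subunits, among them Uqcrh, and the muscle interaction turned sign for Uqcrc2 (0.031) and mt-Atp8 (0.053), both uncalled in either fit. The cause was not tested. The other 127 counts of calls under alternative settings stayed at 0, as did 957 counts with 1 library left out. Among values of the 3 subunits with the smallest p in each comparison, 325 kept their direction and their side of the threshold under other settings, and 2 passed it under quality weights, mt-Co2 and Uqcrh in nerve HFD against SD, which are among the 34. Counts of nuclear subunits at an unadjusted p under 0.05 (limma) moved in fits of the compared groups alone. In muscle, KD against SD had 22 (21 higher), beside 16.4% of all genes, and HFD against SD 11, beside 13.3%. The fit of all 7 groups gave 7 and 2. In nerve, HFD against SD had 29, beside 14.8%, and DR against HFD 0, beside 6.58%. There the fit of all 7 groups gave 14 and 12. The test of any difference among groups was not rerun with fewer groups. No paired analysis was possible because no label numbers the replicates or links nerve to muscle. The level of low genes such as Cox6b2, Cox4i2 and Ndufs6b is limited by an unknown depth.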
